A study of Rattus norvegicus with 8 samples.

Results

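Eicosanoids are lipid messengers made from arachidonic acid, and the genes described here encode the soluble epoxide hydrolase (Ephx2), the microsomal epoxide hydrolase (Ephx1), and enzymes that make prostaglandins, thromboxane, leukotrienes and hydroxy acids (Ptgs1, Ptgs2, Ptges, Ptgds, Ptgis, Tbxas1, Alox5ap and Alox15). These 10 genes, of 14217 measured, were chosen by their place in the pathway together with strain differences already known from these arrays, so that their own strain differences are described here without a test. They have 12 probe sets on the array, and where a gene has several, the brightest by its mean of 8 arrays is described unless another is named. The RNA came from glomeruli, the filtration units of the kidney, taken from male rats by magnetic retraction. Dahl salt-sensitive rats, which develop proteinuria without a high-salt diet, were compared with spontaneously hypertensive rats (SHR), which do not develop it, and both strains were fed a low-salt diet. There were 2 Dahl rats at 6 weeks of age, 2 Dahl rats at 4 weeks, 2 SHR at 6 weeks and 2 SHR at 4 weeks, each on 1 array. The strains differ across the genome, so that a difference between them cannot be tied to proteinuria. Values are log2 expression values, and a difference is Dahl minus SHR or 6 minus 4 weeks, so that a difference of 1 is a doubling. RNA from whole glomerular isolates cannot tell apart fewer cells of a type and less RNA per cell.

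Arachidonic acid is cut from membranes by phospholipases and then enters separate branches. Cyclooxygenases turn it into prostaglandin H2, which synthases convert into prostaglandin E2, D2, prostacyclin or thromboxane. Lipoxygenases make leukotrienes and hydroxy acids. Cytochrome P450 epoxygenases make epoxyeicosatrienoic acids, which widen blood vessels in the kidney and which the soluble epoxide hydrolase converts into less active diols. In the kidney, prostaglandins set the tone of the glomerular vessels and the release of renin.

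The libraries were alike in scale, with array medians from 4.11 to 4.16 and correlations of 0.989 to 0.997 within groups. Podocyte RNA was present in every isolate: nephrin (Nphs1) lay between 12.10 and 12.65 in Dahl and between 11.84 and 12.26 in SHR. RNA of the proximal tubule, the nephron segment next to the glomerulus, was abundant too. Its 29 measured markers had summed unlogged values of 32200 to 97800 in Dahl and 111000 to 141000 in SHR. For 13 podocyte markers the sums were 23100 to 31700 and 16600 to 23200. The rat named Dahl 6 weeks replicate 2 stood apart in genes of the proximal tubule. Its median over 29 proximal tubule markers was 1.86 below their mean over all arrays, while the other 3 Dahl rats lay between -0.15 and 0.17 and the 4 SHR between 0.27 and 0.72.

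Ephx2 had by far the widest gap of the 10 genes. Its values were 4.97 and 3.09 in Dahl at 6 weeks and 4.68 and 5.02 in Dahl at 4 weeks, against 9.58 and 9.73 in SHR at 6 weeks and 10.67 and 10.85 in SHR at 4 weeks. The lowest SHR value was thus 9.58 and the highest Dahl value 5.02, and the strains did not come near each other. The difference over both ages was -5.76 (SE 0.43, n = 4 rats per strain), a 54.4-fold lower value in Dahl. It was -5.62 at 6 weeks and -5.91 at 4 weeks (SE 0.61 each). Leaving out 1 rat at a time gave differences from -6.23 to -5.30, with -5.30 when Dahl 6 weeks replicate 2 was left out.

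Ephx1, which hydrolyses epoxides of foreign compounds and some lipids at the endoplasmic reticulum, had no such gap. Its values were 8.27 and 7.69 in Dahl at 6 weeks and 7.49 and 8.40 in Dahl at 4 weeks, against 8.06 and 8.33 in SHR at 6 weeks and 8.25 and 8.58 in SHR at 4 weeks. The strains overlapped, and the difference of -0.34 (SE 0.26) lay within the spread between rats. It was -0.20 without Dahl 6 weeks replicate 2, and leaving out a younger Dahl rat gave -0.11 (replicate 1) or -0.57 (replicate 2). The remaining measured epoxide hydrolase, Ephx4, whose role in eicosanoid breakdown is not settled, was higher in Dahl by 0.97 (SE 0.23, adjusted p = 0.0375, limma). It lay between 6.13 and 7.28 in Dahl and between 5.11 and 6.18 in SHR. It lost the call without any one of 6 rats (adjusted p up to 0.11), and kept it only when the replicate 1 rat of either Dahl age was left out.

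**Figure D1:**
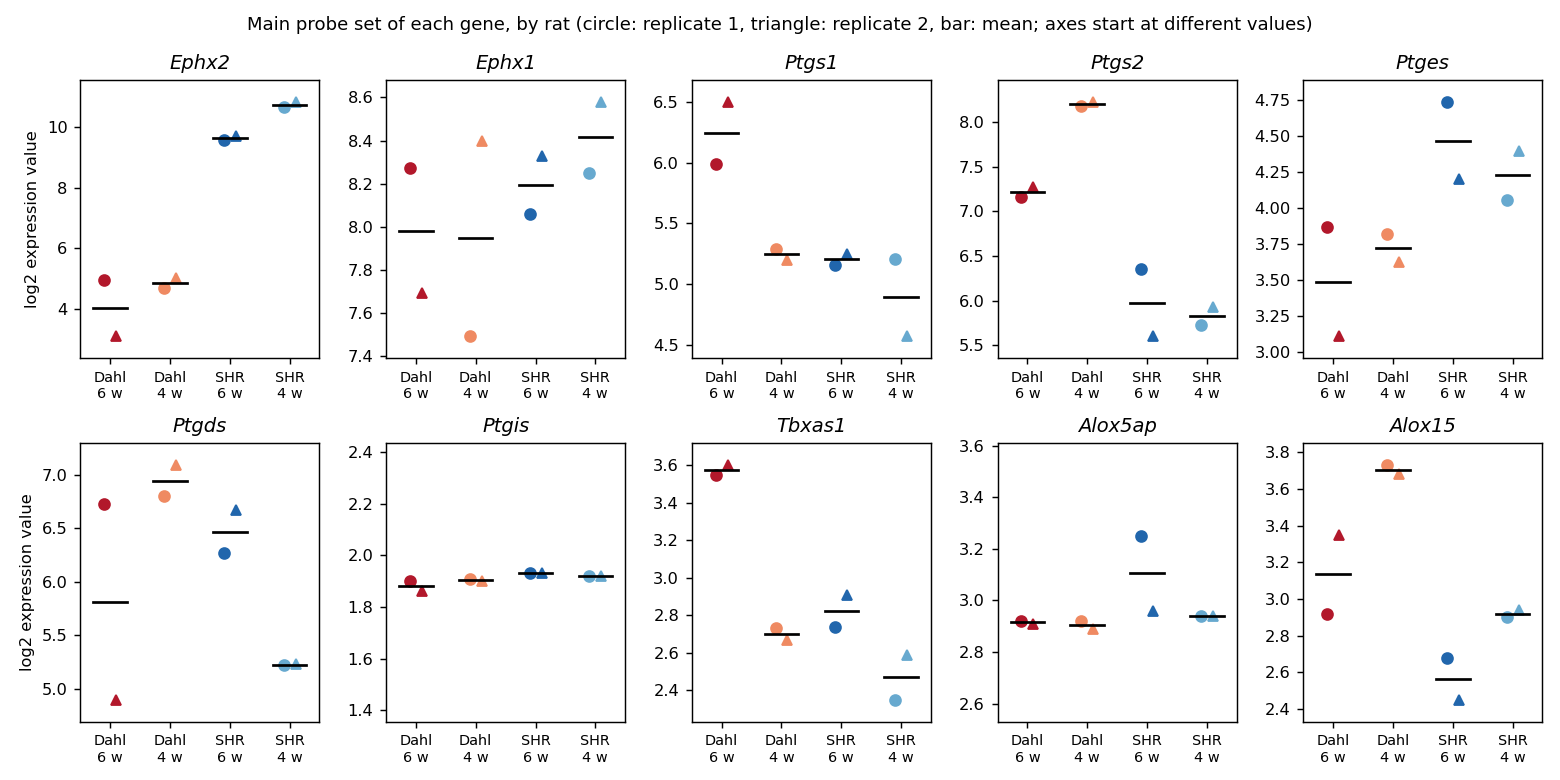
Log2 expression value of the main probe set of each of the 10 genes in every rat, with Dahl in red and SHR in blue at 6 and 4 weeks (w) and a bar at the mean of 2 rats. Ephx2 lies between 3.09 and 5.02 in Dahl and between 9.58 and 10.85 in SHR, and Ptgs2 is higher in every Dahl rat than in any SHR.

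Ptgs2, the inducible cyclooxygenase (COX-2), was higher in every Dahl rat than in any SHR. It read 7.16 and 7.28 in Dahl at 6 weeks and 8.18 and 8.23 in Dahl at 4 weeks, against 6.35 and 5.60 in SHR at 6 weeks and 5.73 and 5.93 in SHR at 4 weeks. The 2 younger Dahl rats had the highest values, and no SHR reached the lowest Dahl value. The difference over both ages was 1.81 (SE 0.18), a 3.50-fold higher value in Dahl, with 1.25 at 6 weeks and 2.37 at 4 weeks (SE 0.25 each).

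Ptgs1, the constitutive cyclooxygenase (COX-1), was separated from SHR mainly at 6 weeks. Its values were 5.99 and 6.50 in Dahl at 6 weeks and 5.29 and 5.20 in Dahl at 4 weeks, against 5.16 and 5.25 in SHR at 6 weeks and 5.21 and 4.57 in SHR at 4 weeks. Both older Dahl rats lay above every other rat. Of the younger Dahl rats, replicate 1 (5.29) lay just above the highest SHR (5.25) and replicate 2 (5.20) lay within the SHR range. The difference was 0.69 (SE 0.19) over both ages, with 1.03 at 6 weeks and 0.36 at 4 weeks (SE 0.26 each). The other Ptgs1 probe set was dim, at 2.78 to 2.94 in Dahl and 2.97 to 3.14 in SHR, and differed the other way (-0.12, SE 0.051).

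The 2 cyclooxygenase genes carry out the same reaction but have different upstream sequences, which are shown because the genes sit at the same branch point and differed unequally. Both are the 250 bases before the start in RefSeq on GRCr8, an assembly of the BN strain, so bases of Dahl and SHR may differ. Of the 10 genes, 6 had a promoter in that table, and Ephx2, Ptgis, Alox5ap and Alox15 are not shown. Capitals mark matches, on either strand, to a GC box (GGGCGG), an E box (CACGTG) or a C/EBP motif (TTNNGNAA).
Ptgs2, chr13:64713813-64714062, plus strand: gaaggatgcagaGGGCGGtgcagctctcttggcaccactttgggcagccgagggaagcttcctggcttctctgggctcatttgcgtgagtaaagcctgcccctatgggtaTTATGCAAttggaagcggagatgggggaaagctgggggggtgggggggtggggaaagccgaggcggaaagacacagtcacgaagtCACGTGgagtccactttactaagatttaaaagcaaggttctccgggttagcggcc
Ptgs1, chr3:39981169-39981418, plus strand: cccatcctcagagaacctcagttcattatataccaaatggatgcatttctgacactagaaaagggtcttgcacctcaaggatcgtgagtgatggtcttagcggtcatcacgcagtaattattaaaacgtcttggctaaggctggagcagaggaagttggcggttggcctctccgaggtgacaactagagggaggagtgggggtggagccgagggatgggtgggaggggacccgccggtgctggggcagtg
The Ptgs2 sequence held a GC box beginning 238 bases before the start, a C/EBP motif at 140 and an E box at 55. The Ptgs1 sequence held none of these, and neither held a TATA box (TATAAA) or a cyclic AMP response element (TGACGTCA). Among 33469 rat promoters of this length, 30.5% held the GC box, 37.2% the C/EBP motif and 5.59% the E box, while 12.9% held the TATA box and 1.59% the cyclic AMP response element. Such matches describe the letters only.

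Of the synthases that act on prostaglandin H2, Ptges, which makes prostaglandin E2, had all 4 Dahl values below all 4 SHR values. It read 3.87 and 3.11 in Dahl at 6 weeks and 3.82 and 3.63 in Dahl at 4 weeks, against 4.74 and 4.20 in SHR at 6 weeks and 4.06 and 4.40 in SHR at 4 weeks. The strains were parted by less than the spread within SHR, and the difference was -0.74 (SE 0.23), or -0.55 without Dahl 6 weeks replicate 2. The second Ptges probe set stayed between 2.30 and 2.44 in Dahl and between 2.37 and 2.39 in SHR, with a difference of -0.032.

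Ptgds, the lipocalin-type enzyme that makes prostaglandin D2, had age differences of opposite sign in the 2 strains, of which that in Dahl rested on 1 rat and neither passed the test. It read 6.73 and 4.90 in Dahl at 6 weeks and 6.80 and 7.09 in Dahl at 4 weeks, against 6.27 and 6.67 in SHR at 6 weeks and 5.22 and 5.23 in SHR at 4 weeks. At 4 weeks both Dahl rats lay above both SHR (1.72, SE 0.60), while at 6 weeks the mean difference was -0.65 (SE 0.60) and rested on Dahl 6 weeks replicate 2. Over both ages the difference was 0.53 (SE 0.43), and it was 0.99 without that rat and 0.077 without Dahl 6 weeks replicate 1. Ptgis, prostacyclin synthase, gave values of 1.86 to 1.91 in Dahl and 1.92 to 1.93 in SHR. These lie in the dimmest quartile of probe sets (means up to 2.60), where the median strain difference of all probe sets was -0.058, and the Ptgis difference of -0.034 is of that size.

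Tbxas1, thromboxane synthase, was highest in the older Dahl rats. Its values were 3.55 and 3.60 in Dahl at 6 weeks and 2.73 and 2.67 in Dahl at 4 weeks, against 2.74 and 2.91 in SHR at 6 weeks and 2.35 and 2.59 in SHR at 4 weeks. Both older Dahl rats lay above every other rat, and the younger Dahl rats lay within the SHR range. The difference was 0.49 (SE 0.07) over both ages, with 0.75 at 6 weeks and 0.23 at 4 weeks (SE 0.10 each).

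Alox15, whose product is a lipoxygenase that makes hydroxy acids of arachidonic acid, had higher values in Dahl at each age. It read 2.92 and 3.35 in Dahl at 6 weeks and 3.73 and 3.68 in Dahl at 4 weeks, against 2.68 and 2.45 in SHR at 6 weeks and 2.90 and 2.94 in SHR at 4 weeks. The difference was 0.68 (SE 0.11), and only the lowest Dahl and the highest SHR values crossed. Alox5ap, the protein that presents arachidonic acid to 5-lipoxygenase, was near-constant, at 2.89 to 2.92 in Dahl and 2.94 to 3.25 in SHR. Its difference was -0.12 (SE 0.066), and -0.047 without SHR 6 weeks replicate 1, which alone read 3.25. Ptges, Tbxas1, Alox5ap and Alox15 all lie in the second quartile of brightness (means 2.60 to 4.17), where the median strain difference of all probe sets was -0.11.

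Across the 10 genes, 5 had strains that did not overlap: Ptgs2 was higher in Dahl, and Ephx2, Ptges, Ptgis and Alox5ap were lower. Over all genes the share without overlap was 42.8%, so that the count is near the background. The median difference of the 10 genes was 0.23, beside -0.048 for all genes, with 5 above 0 and 5 below.

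The difference between ages is another contrast than the strain difference by which the genes were chosen, and it was tested, although earlier results of these arrays were known when the list was made. None of the 10 genes passed the test between 6 and 4 weeks in Dahl (limma, Benjamini-Hochberg adjustment over all probe sets, threshold 0.05), where 0.0985% of all genes passed. In SHR none passed, against 3.42% of all genes, and none passed for the difference of strain differences between 6 and 4 weeks, against 0.71% of all genes. At an unadjusted p under 0.05 there were 4 of the 10 in Dahl, 1 in SHR and 3 for the difference between ages, beside 10.9%, 20.3% and 14.1% of all genes. With 2 rats per group and 4 residual degrees of freedom, a change has to be large relative to the spread to pass.

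Tbxas1 had the smallest adjusted p of the 10 genes in each of these comparisons. Its difference of 6 minus 4 weeks was 0.88 in Dahl (SE 0.10, adjusted p = 0.114) and 0.35 in SHR (SE 0.10, adjusted p = 0.185). The strain difference changed by 0.52 between the ages (SE 0.14, adjusted p = 0.271). Ptgs1 differed with age by 1.00 in Dahl (SE 0.26, adjusted p = 0.394) and by 0.32 in SHR (SE 0.26, adjusted p = 0.707), the SHR value being -0.0013 without SHR 4 weeks replicate 2. The Dahl value of Ptgs1 was 0.74 without Dahl 6 weeks replicate 2 and 1.25 without Dahl 6 weeks replicate 1. Ptgs2 had the opposite sign in Dahl, with -0.98 (SE 0.25, adjusted p = 0.383), and stood at 0.14 in SHR (SE 0.25, adjusted p = 0.948), or at -0.24 without SHR 6 weeks replicate 1. Its strain difference was smaller at 6 than at 4 weeks by a value of -1.13 that did not pass (SE 0.36, adjusted p = 0.345), and by -0.75 without SHR 6 weeks replicate 1.

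Alox15 had age differences of -0.57 in Dahl (SE 0.16, adjusted p = 0.419) and -0.35 in SHR (SE 0.16, adjusted p = 0.425). Ephx2 was at -0.82 in Dahl (SE 0.61, adjusted p = 0.806) and at -1.11 in SHR (SE 0.61, adjusted p = 0.534), and its strain difference changed by 0.29 (SE 0.87, adjusted p = 0.994). Without Dahl 6 weeks replicate 2 the Ephx2 age difference in Dahl was 0.12, and the change in its strain difference was 1.23 (adjusted p = 0.158), while without Dahl 6 weeks replicate 1 that change was -0.65 (adjusted p = 0.323). For Ptgds the age differences were -1.13 in Dahl (SE 0.60, adjusted p = 0.699) and 1.24 in SHR (SE 0.60, adjusted p = 0.461). The change in its strain difference was -2.38 (SE 0.85, adjusted p = 0.412). Without Dahl 6 weeks replicate 2 these values were -0.22 in Dahl and -1.46 for the change in the strain difference. Without Dahl 6 weeks replicate 1, which leaves the low array alone in its group, Ephx2 (-1.76, adjusted p = 0.0346) and Ptgds (-2.05, adjusted p = 0.0362) passed in Dahl, and Ptgds passed for the difference between ages (-3.29, adjusted p = 0.0368). These calls rest on Dahl 6 weeks replicate 2, and no gene passed when any other array was left out.

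**Figure D2:**
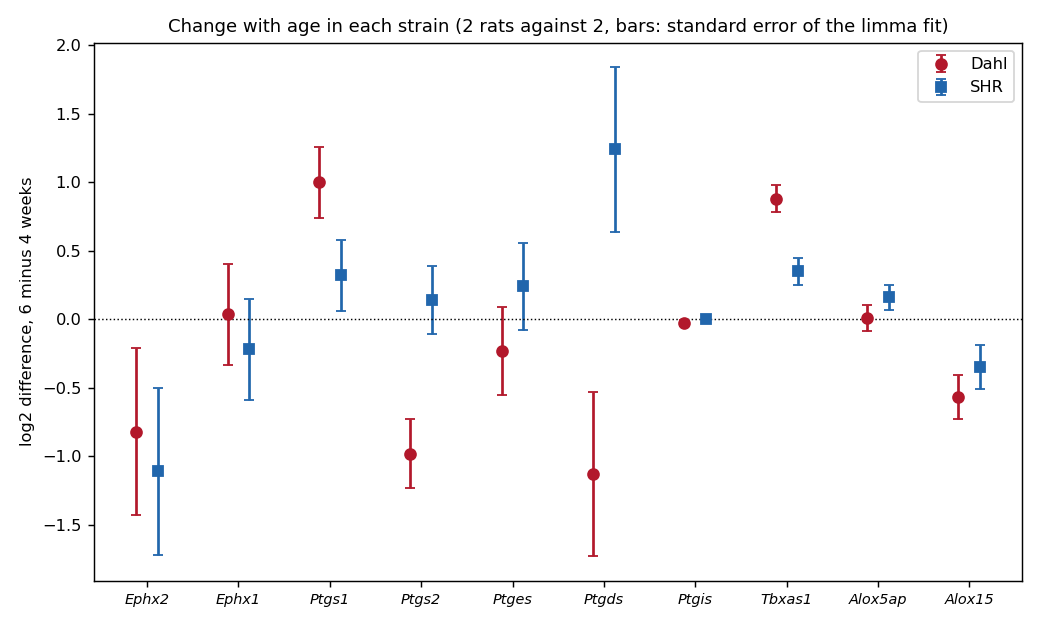
Difference of 6 minus 4 weeks in log2 expression for the 10 genes, with Dahl as red circles and SHR as blue squares, each of 2 rats against 2, and bars of 1 standard error of the limma fit. Ptgs2 stands at -0.98 in Dahl and 0.14 in SHR, Ptgds at -1.13 in Dahl (-0.22 without Dahl 6 weeks replicate 2) and 1.24 in SHR, and none of the differences passed the test.

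Of 94 further genes listed for the pathway, 75 were measured, and these were tested between the strains. In Dahl 8 were higher (10.7%) and 20 lower (26.7%), beside 13.2% and 21.2% of all genes. The median difference was -0.076, beside -0.048 for all genes. With each array centred on its median the counts were 9 higher and 40 lower. The share of all genes that passed in that setting was not computed. Of the 20 lower genes, 8 lay below the median brightness with differences of -0.061 to -0.15, near the size of the shift of all dim probe sets. The call held without each array in turn for 9 genes, namely Pla2g4a, Pla2g12a, Akr1b8, Slco2a1, Mgst1, Dpep1, Dpep2, Cyp4f6 and Cyp4f17.

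The genes that release arachidonic acid moved both ways. Pla2g4a, the cytosolic phospholipase A2, was higher in Dahl by 1.29 (SE 0.11, adjusted p = 0.00753, limma). It read 8.74 and 8.84 in Dahl at 6 weeks and 8.76 and 8.72 in Dahl at 4 weeks, against 8.31 and 7.84 in SHR at 6 weeks and 6.95 and 6.81 in SHR at 4 weeks. The Dahl values were nearly level and the SHR values differed by age, so that the strains were 0.72 apart at 6 weeks and 1.86 apart at 4 weeks. Pla2g12a, a secreted phospholipase A2, was lower in Dahl by a difference of -1.95 (SE 0.16, adjusted p = 0.00665), at 5.24 to 5.80 in Dahl and 6.84 to 7.94 in SHR. Of 16 measured genes in this group, 1 was higher and 4 were lower, the remaining lower ones being Pnpla8 (-0.34, with 0.14 at 6 weeks and -0.82 at 4 weeks) and the dim Pla2g1b (-0.068) and Pla2g5 (-0.061).

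Among 7 other prostanoid synthases, 1 was higher (14.3%) and 3 were lower (42.9%), beside 13.2% and 21.2% of all genes. The list was not tested as a set. Akr1b8, an aldo-keto reductase listed for its family, lay at 2.59 to 2.96 in Dahl and 7.00 to 7.64 in SHR, a difference of -4.52 (SE 0.094, adjusted p = 0.000667). Ptges2, a membrane-associated prostaglandin E synthase, had a difference of -0.74 (SE 0.18, adjusted p = 0.0388), and Cbr1, a carbonyl reductase that can convert prostaglandin E2 to F2alpha, one of 0.61 (SE 0.09, adjusted p = 0.0155). The Ptges2 call held only when Dahl 6 weeks replicate 1 was left out and was lost without any other array (adjusted p up to 0.114). The Cbr1 call was lost without Dahl 4 weeks replicate 2, SHR 6 weeks replicate 1 or SHR 6 weeks replicate 2 (adjusted p up to 0.0601). Ptges3, the cytosolic prostaglandin E synthase, differed by 0.11 (adjusted p = 0.163). Hpgds, the haematopoietic prostaglandin D synthase, was dim, and its call rested on a difference of -0.088 (adjusted p = 0.0234).

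Of 7 genes of prostanoid breakdown and transport, 3 were lower in Dahl (42.9%) and none was higher, beside 21.2% and 13.2% of all genes. With so few genes the share is coarse, and the list was not tested as a set. Slco2a1, which carries prostaglandins into cells for breakdown, was at 8.08 to 8.66 in Dahl and 9.79 to 10.48 in SHR, a difference of -1.76 (SE 0.14, adjusted p = 0.00591). Ptgr1, a prostaglandin reductase, had -0.90 (SE 0.20, adjusted p = 0.0324), a call that was lost without any one of the younger Dahl rats or the 4 SHR (adjusted p up to 0.101). Hpgd, which oxidises prostaglandins to inactive forms, had -0.66 (SE 0.18, adjusted p = 0.047), with -0.084 at 6 weeks and -1.23 at 4 weeks, and lost its call without any one of the 8 arrays (adjusted p up to 0.124).

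Few receptors of prostanoids and leukotrienes passed, and many were dim. Of 7 prostanoid receptors 5 lay below the median brightness. Only the dim Ptgfr (-0.13) was lower in Dahl (14.3% of the list, beside 21.2% of all genes). None of 4 measured leukotriene receptors passed, and all 4 were dim, at 1.82 to 2.08, where a value carries little signal over background. Ptger3, a prostaglandin E2 receptor, differed by -0.47 (SE 0.18, adjusted p = 0.0883) and Ptger4, another, by -0.30 (SE 0.20, adjusted p = 0.27). Ptger4 stood at -0.10 without Dahl 4 weeks replicate 1 and at -0.50 without Dahl 4 weeks replicate 2. Tbxa2r, the thromboxane receptor, had 0.18 (adjusted p = 0.339), with 0.027 when Dahl 6 weeks replicate 2 was left out (adjusted p = 0.683) and 0.34 when Dahl 6 weeks replicate 1 was left out, where it passed (adjusted p = 0.0201). Ptger1 and Ptger2, also prostaglandin E2 receptors, were at 0.076 and -0.027. The sign of Ptger1 turned without Dahl 6 weeks replicate 2 (-0.09).

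Among 13 other lipoxygenase and leukotriene genes, 2 were higher and 2 lower (15.4% each), beside 13.2% and 21.2% of all genes. Dpep1, a dipeptidase that converts leukotriene D4 to E4 and is also a proximal tubule marker, was at 3.54 to 5.83 in Dahl and 7.63 to 8.52 in SHR, a difference of -2.95 (SE 0.30, adjusted p = 0.00835). Dpep2, a related dipeptidase, read 3.66 and 3.91 in Dahl at 6 weeks and 2.78 and 2.78 in Dahl at 4 weeks, against 2.77 and 2.57 in SHR at 6 weeks and 2.78 and 2.79 in SHR at 4 weeks. Its call (0.55, SE 0.074, adjusted p = 0.0131) thus came from the older Dahl rats. Ggt5, which converts leukotriene C4 to D4, was higher by 0.79 (adjusted p = 0.0275) and Mgst1, a microsomal glutathione transferase, lower with -0.44 (adjusted p = 0.00827). Of these 4 genes, Ggt5 lost its call without any one of 6 arrays (adjusted p up to 0.0868). The partners of Alox5ap did not pass: Alox5, 5-lipoxygenase, had -0.055 (adjusted p = 0.0584), Ltc4s, leukotriene C4 synthase, -0.03, and Lta4h, leukotriene A4 hydrolase, -0.027 (adjusted p = 0.426).

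The enzymes that make the substrates of Ephx2 are the cytochrome P450 epoxygenases. Of these, counting the electron donor Por, 11 genes were measured, with 2 higher (18.2%) and 5 lower (45.5%). Over all genes 13.2% passed as higher and 21.2% as lower, and the list was not tested as a set. Cyp2c23, the main epoxygenase of rat kidney, read 11.77 and 9.64 in Dahl at 6 weeks and 12.22 and 12.22 in Dahl at 4 weeks, against 12.27 and 12.68 in SHR at 6 weeks and 12.90 and 13.10 in SHR at 4 weeks. Every SHR lay above every Dahl rat, but the difference of -1.28 (SE 0.49) did not pass (adjusted p = 0.0926). It passed without Dahl 6 weeks replicate 2 (-0.74, adjusted p = 0.0436) and without Dahl 6 weeks replicate 1 (-1.81, adjusted p = 0.00808), and the adjusted p was 0.165 to 0.211 without any one of the other arrays. Por, which passes electrons to all these enzymes, was lower with -1.06 (SE 0.16, adjusted p = 0.0156), with -0.43 at 6 weeks and -1.69 at 4 weeks. Its other probe set had -0.29 and did not pass (adjusted p = 0.36, limma). Cyp2j3 and Cyp2j4, epoxygenases of the other subfamily, were higher by 0.75 (adjusted p = 0.0429) and 0.78 (adjusted p = 0.0359).

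The Cyp2j3 call was lost without any one of the 8 arrays (adjusted p up to 0.119) and that of Cyp2j4 without any one of 6 (adjusted p up to 0.104). Por lost its call without Dahl 4 weeks replicate 2, SHR 6 weeks replicate 1 or SHR 6 weeks replicate 2 (adjusted p up to 0.0602). The remaining 4 lower genes, Cyp2c6v1 (-0.15), Cyp2c7 (-0.084), Cyp2c22 (-0.077) and Cyp2j10 (-0.13), were dim. Of 9 omega-hydroxylases, which make the vasoconstrictor 20-HETE and related acids, Cyp4f17 was higher by 2.39 (SE 0.23, adjusted p = 0.00792), at 4.88 to 5.95 in Dahl and 2.79 to 3.30 in SHR. Cyp4f6 was lower with -0.79 (SE 0.071, adjusted p = 0.00761). Cyp4f1 was lower with -1.75 (SE 0.46, adjusted p = 0.0435), a call that was lost without any one of the younger Dahl rats or the 4 SHR (adjusted p up to 0.123).

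**Figure D3:**
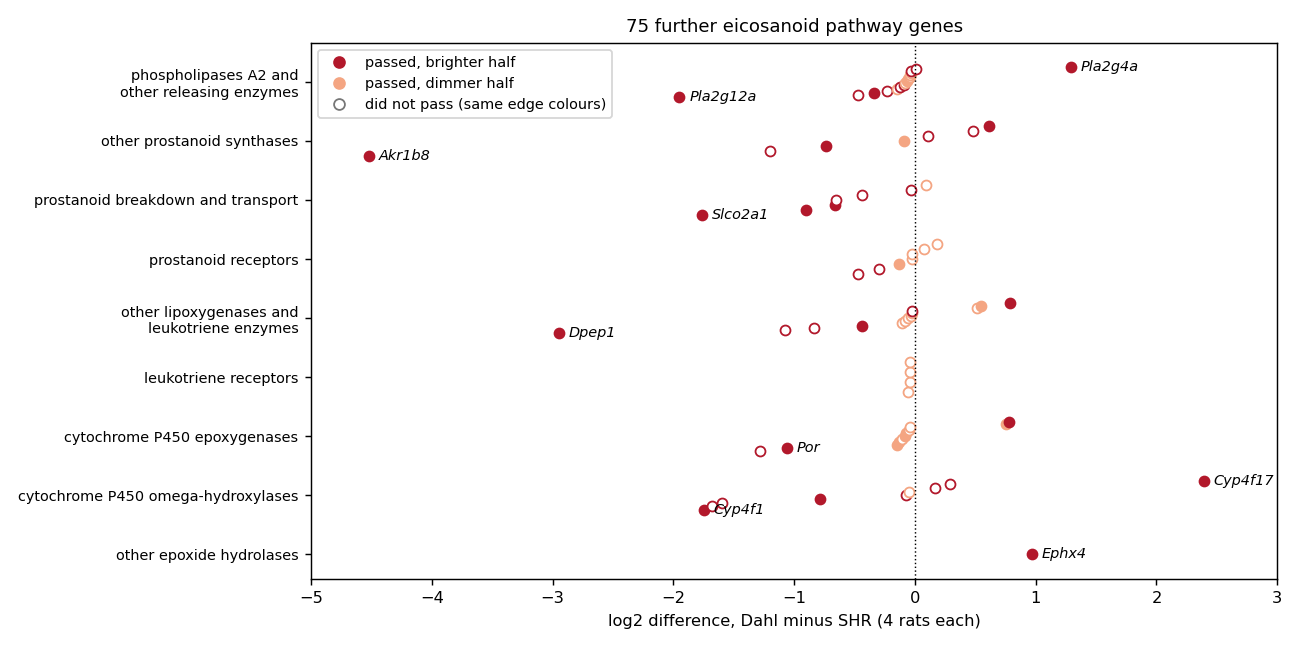
Difference of Dahl minus SHR in log2 expression over both ages (4 rats per strain) for the 75 further pathway genes, by group. Filled points passed the limma test at an adjusted p under 0.05, open points did not, and the paler colour marks probe sets below the median brightness; Akr1b8 at -4.52 and Cyp4f17 at 2.39 are the outermost.

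Markers of other cell types moved between the same groups of rats. The proximal tubule, where Ephx2 is also expressed, had 27 of 29 measured markers below 0 in Dahl, with a median difference of -1.03. Of these markers 4 passed as lower (Dpep1, Cyp2e1, Slc5a12 and Slc27a2), beside 21.2% of all genes, and 1, Slc7a13, as higher, beside 13.2%. The summed unlogged value of the 29 markers ran from 32200 to 97800 in Dahl and from 111000 to 141000 in SHR. The lowest of the 29 differences was that of Dpep1 (-2.95), and Ephx2, at -5.76, lay beyond it. Without Dahl 6 weeks replicate 2 the median of the markers was -0.55 and the lowest -2.71, beside -5.30 for Ephx2. The part of tubule RNA in the lower values of Ephx2, Ptges, Cyp2c23 and Dpep1 was not tested.

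Tbxas1, Ptgs1, Alox5ap and Alox15 are also used by blood cells. Of 22 measured macrophage and leukocyte markers, 12 were higher in Dahl (beside 13.2% of all genes) and 6 lower (beside 21.2%), with a median difference of 0.84. Their score, the median over the list of each marker minus its mean over the arrays, was 0.55 and 1.03 in Dahl at 6 weeks and -0.014 and -0.028 in Dahl at 4 weeks, against 0.44 and 0.28 in SHR at 6 weeks and -1.15 and -1.32 in SHR at 4 weeks. Their summed unlogged value was 2580 to 5760 in Dahl and 952 to 3890 in SHR, and Itgam, Cd163, Cd3g, Cd4, Cd8a and Cd79b lay in the dimmest quartile. The 6 lower markers were Mrc1, Cd3e and the dim Cd163, Cd3g, Cd8a and Cd79b. Mrc1, a macrophage marker, had -1.76 (adjusted p = 0.0106, limma). The score, like Tbxas1 and Ptgs1, was highest in the older Dahl rats. In other respects it differed from them. The strains were further apart in the score at 4 than at 6 weeks. For Tbxas1 the strain difference was 0.23 at 4 weeks and 0.75 at 6 weeks, and for Ptgs1 0.36 and 1.03. The score rose more with age in SHR than in Dahl, and both genes rose more in Dahl. The part of these cells in the values of Tbxas1 and Ptgs1 was not tested. Of 7 platelet markers, 4 lay in the dimmest quartile, 1 passed as lower, and the summed value was 94.7 to 151 in Dahl and 92.3 to 116 in SHR. Of 8 mast cell markers, 6 lay in the dimmest quartile and 4 passed as lower, with sums of 40.9 to 43.2 in Dahl and 44.3 to 45.3 in SHR.

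Ptgs2 is made in the kidney by the macula densa and by podocytes, among others. Of 6 measured markers of the macula densa and juxtaglomerular cells, all were below 0 in Dahl and 3 passed as lower. Over all genes 21.2% passed as lower and 13.2% as higher. The 3 were Pappa2 (-0.26), Akr1b7 (-0.075) and Calca (-0.21), all below the median brightness. The median strain difference of all probe sets was -0.058 in the dimmest quartile and -0.11 in the next. Nos1, Avpr1a, Pappa2 and Akr1b7 of that list lay in the dimmest quartile, and the summed value was 558 to 1240 in Dahl and 791 to 1650 in SHR. Of 13 podocyte markers, 5 were higher in Dahl, with a median difference of 0.40 (0.23 without Dahl 6 weeks replicate 2) and sums of 23100 to 31700 in Dahl and 16600 to 23200 in SHR. Mesangial and smooth muscle markers had 9 of 16 higher and 1 lower (median 0.78, sums 6030 to 8080 in Dahl and 3250 to 4590 in SHR). Endothelial markers had 8 of 14 higher (median 0.44, sums 15800 to 24600 in Dahl and 12500 to 16300 in SHR). The part of these cells in the Ptgs2 difference of 1.81 was not tested.

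**Figure D4:**
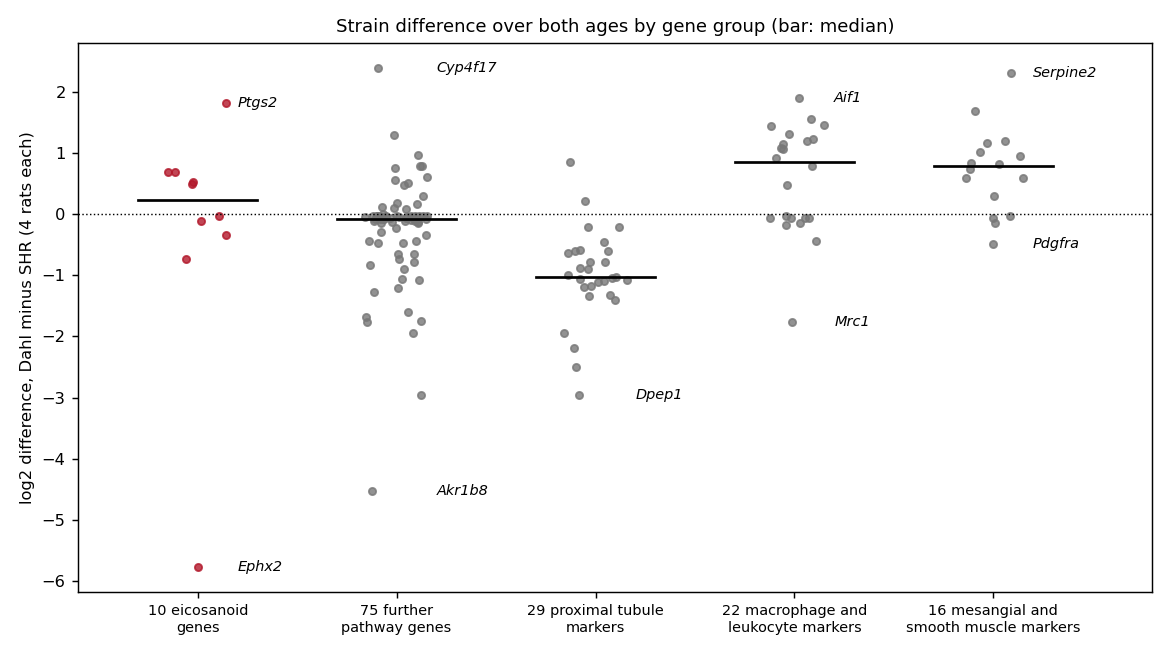
Difference of Dahl minus SHR in log2 expression over both ages (4 rats per strain) for the 10 eicosanoid genes, the 75 further pathway genes and 3 lists of cell type markers, each point a gene and each bar a median. Ephx2 at -5.76 lies below every proximal tubule marker, whose lowest is Dpep1 at -2.95.

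The genes whose pattern over the 8 arrays was most like that of Ephx2 were found by the root mean square difference of profiles centred on their own mean, among 14216 genes. The nearest was Akr1b8 at 0.98, followed by Acox2 at 1.20, Dusp15 at 1.22, Dmrtc1c1 at 1.31 and Serpinc1 at 1.39, while Ephx2 itself varied about its own mean by 2.96. All 5 were low in Dahl: Acox2, a peroxisomal oxidase of branched acyl chains, lay at 2.66 to 3.36 in Dahl and 5.61 to 7.20 in SHR, and Serpinc1, antithrombin, at 4.50 to 6.78 in Dahl and 8.62 to 9.47 in SHR. Dusp15, a dual-specificity phosphatase, read 2.15 to 2.21 in Dahl and 5.63 to 6.30 in SHR, and Dmrtc1c1 read 4.60 to 5.51 in Dahl and 7.39 to 9.55 in SHR. This likeness is a description over 8 arrays and is set largely by the size of the strain difference.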

How the data were processed

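Glomerular RNA of 8 rats was measured on Affymetrix rat genome arrays, 1 array per rat. The authors deposited log2 expression values, already background-corrected and normalized. Per the labels' processing notes, RMA and GCRMA were used. The sources used here do not say which of them made these values. The table held 31099 probe sets, and 31042 were tested once 57 control probe sets had been dropped. A probe set was named through the platform annotation if it had 1 gene (20826; several for 436, none for 9780), and for a gene with several probe sets that with the highest mean was used.

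The values were taken without further normalization. Group means of the 4 strain and age groups were fitted with limma 3.58.1 in R 4.3.3 (lmFit, eBayes; prior degrees of freedom 0.921), and p-values were adjusted by Benjamini-Hochberg over all probe sets tested. The fitting step was tested on simulated data. The labels number 2 rats in each group and do not say that they are from separate litters, so p-values measure only the spread between these rats. The number of arrays limits the precision.

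The 10 genes, the pathway lists and the marker lists were chosen with earlier results of these data known. Named pathway genes were, per list, up to 2 higher and 2 lower genes with the largest difference whose strains did not overlap, and enzymes and receptors next to the 10 genes. Other genes named beside a small count (Ephx4, Hpgd, Pnpla8, Pla2g5, Mgst1, Ggt5, Dpep2, Cyp4f1, Cyp2j4, Cyp2j10, Cyp2c7 and Cyp2c22) were chosen after their values were seen. Alternatives were an intensity trend, quantile normalization, median centring, a filter on dim probe sets, the replicate number as a block, additive and strain-only models, the methods' t-test, another choice of probe set, and leaving out each array. Promoters came from RefSeq (GRCr8).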

Additional observations from a re-analysis of the deposited data

Results flagged for a closer look

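Among 74 groups of 4 rats of 1 strain, over 37 named genes, 11 held a rat whose gap to the nearest of the others was above Dixon's critical value. Chance gives about 1 in 20 for 4 values of 1 normal population. Here each group pools rats of 4 and 6 weeks and the same arrays recur over genes, so the count cannot be read as an excess. In Dahl 6 weeks replicate 2, Ptgds was the lowest of the 4 Dahl rats at 4.90 (the others 6.73 to 7.09), Ptgis the lowest at 1.86 (1.90 to 1.91), and Ptger1 the highest at 3.53 (2.84 to 2.89). In Dahl 4 weeks, Pla2g12a was highest in replicate 2 at 5.80 (5.24 to 5.28) and Ptger2 highest in replicate 1 at 1.67 (1.66 in the others). In SHR 6 weeks replicate 1, Alox5ap was the highest of the 4 SHR at 3.25 (2.94 to 2.96), Ptger3 at 6.50 (6.08 to 6.11) and Ptger4 at 4.81 (4.39 to 4.45). In SHR 4 weeks replicate 2, Ptgs1 was the lowest at 4.57 (5.16 to 5.25), Cyp4f17 the lowest at 2.79 (3.22 to 3.30), and Dpep1 the highest at 8.52 (7.63 to 7.73).

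For 4 of the 37 named genes the 2 strains had age differences of opposite sign with no overlap of the ages. None of the differences passed the limma test. The share of all genes with this pattern was not computed, so the count is not read as a result. The change in the strain difference, 6 minus 4 weeks, was -2.38 for Ptgds (adjusted p = 0.412, and -1.46 without Dahl 6 weeks replicate 2), -0.032 for Ptgis (adjusted p = 0.888), -0.67 for Akr1b8 (adjusted p = 0.28) and 0.29 for Cyp4f6 (adjusted p = 0.596).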

How the results depend on the processing

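The strain differences of the 10 genes kept their sign in all settings but 2: Ptgs1 had -0.12 on its other probe set, and Ptgis had 0.0093 after quantile normalization. The count of pathway genes that passed, 28 of 75, was 49 with an intensity trend and robust variance (9 higher, 40 lower), 49 with arrays centred on their median (9 and 40), and 15 after quantile normalization (5 and 10). Both larger counts hold all 28 genes. It ranged from 9 to 37 when 1 array was left out. Without the dimmer probe sets 41 pathway genes remained and 24 of them passed. With all probe sets, 6 of these 41 had passed as higher and 12 as lower. The count of the 75 was 37 in an additive model, 28 with strain alone and 34 by the methods' t-test after adjustment (42 before it). With the replicate number as a block, 19 pathway genes passed. The share of all genes that passed was not computed for any of these alternatives. The deviations of same-numbered rats were weakly correlated between groups (from -0.225 to 0.236). With 2 rats per group, these correlations cannot exclude a pairing by number. The count of the 10 genes that passed stayed at 0 for age in SHR in every setting. It ranged from 0 to 2 for age in Dahl and from 0 to 1 for the difference between ages when 1 array was left out, and was 0 in the other settings.

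After quantile normalization the sign turned for dim genes near 0: Ptger2 (0.0033), Alox5 (0.0088), Ltc4s (0.019) and Cyp2c11 (0.0081). Ptger1 ranged from -0.09 to 0.24 when 1 array was left out. The cause of these changes was not tested. With 2 rats per group the smaller age differences are not resolved, and values near the dim end of the array carry little signal over background.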

Other observations

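Of the 75 further pathway genes, 4 (5.33%) passed the limma test of age in SHR, 2 higher and 2 lower at 6 weeks, near the 3.42% of all genes. None passed in Dahl or for the change in the strain difference. At an unadjusted limma p under 0.05 there were 8 of the 75 in Dahl, 18 in SHR and 11 for that change. Over all genes the shares were 10.9%, 20.3% and 14.1%, so that the counts are near the background. In SHR, Pla2g2d, a secreted phospholipase A2 of lymphoid tissue, was higher at 6 than at 4 weeks by 2.21 (adjusted p = 0.00914), at 5.52 and 5.52 against 3.13 and 3.49. In Dahl its difference was 1.38 and did not pass (adjusted p = 0.0922), at 4.91 and 5.07 at 6 weeks against 3.69 and 3.52 at 4 weeks. Pla2g4a was also higher at 6 weeks in SHR (1.19, adjusted p = 0.0398), with 0.054 in Dahl (adjusted p = 0.97). Its strain difference did not pass as changed between the ages (-1.14, adjusted p = 0.161). Pnpla8, a calcium-independent phospholipase, was lower at 6 weeks in SHR (-0.81, adjusted p = 0.0285), with 0.15 in Dahl (adjusted p = 0.758) and a change between the strains of 0.96 (adjusted p = 0.0822). Mgst1 was lower at 6 weeks in SHR (-0.55, adjusted p = 0.028), and its difference in Dahl was -0.49 (adjusted p = 0.133). These 4 genes were named after their values were seen.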
